A study of Danio rerio with 26 samples.

Results

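Withdrawal from long ethanol exposure was compared with no exposure in the brain of male zebrafish, using 3 libraries of withdrawal males and 2 libraries of control males. Transcripts were kept when they reached at least 1 TPM in at least 2 of these 5 libraries, which selected 28788 transcripts (members below) of the 57918 in the brain table. All 28788 were among the 36682 brain transcripts tested across the whole study. TPM is the abundance of a transcript relative to all transcripts of its library, whose values sum to the same total in every library.

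Ethanol acts on the brain mainly by strengthening inhibitory GABA-A receptor currents and weakening excitatory NMDA receptor currents. During long exposure the brain adapts to this shift, and when ethanol is removed the adaptation is left unopposed, which is the known basis of the overexcited state of withdrawal. The zebrafish absorbs ethanol from the tank water and is widely used to study these responses.

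The fish were of the AB strain with short fins, and all groups were housed by sex at 28 °C under a cycle of 14 h light and 10 h dark. Alcohol-exposed fish lived in 0.5% ethanol for 9 weeks with a daily change of tank, controls changed tanks in the same way without ethanol, and fish were bred from week 5. Control and alcohol tanks held 30 fish each, while the sources used here do not give the length of withdrawal, the number of withdrawal fish or the age of the fish. The study held 14 brain libraries (2 control males, 3 control females, 2 alcohol males, 2 alcohol females, 3 withdrawal males, 2 withdrawal females) and 12 liver libraries, 2 in each of the 6 groups. Tissue was pooled within groups and no label says that replicate libraries came from separate fish, so p-values measure only the spread between libraries, which may be technical. The transcripts could not be paired with gene names here, so the brain label was not checked against cell type markers, and results are given for transcripts and for groups of transcripts. In pooled tissue, fewer cells of a type and less RNA per cell cannot be told apart.

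Control male libraries covered the fewest transcripts of the 14, and the alcohol libraries the most. The control male libraries had 23580 and 22579 transcripts at 1 TPM or more, against 27652, 27196 and 27740 in withdrawal males, 26660 to 27088 in control females, 24293 and 25576 in withdrawal females, and 32287 to 33304 in the 4 alcohol libraries. The 1000 most abundant transcripts held 68.1% and 71.6% of TPM in control males and 61.5%, 64.1% and 61.3% in withdrawal males. Both withdrawal females lay within the control male range, the lower at 69.0%, control females had 61.5% to 65.0%, and the alcohol libraries had 40.7% to 48.1%. The control and withdrawal males did not overlap, with a mean of 62.3% ± 1.55 (SD, n = 3) after withdrawal and 69.8% (n = 2) in controls. The difference of −7.53 percentage points gave p = 0.1 in an exact permutation test (two-sided), the smallest that the 10 splits of 5 libraries can give. This difference in breadth went with the contrast of the groups, and its part in the results below was not tested. The read depth is unknown because the files hold TPM only.

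Over the members, withdrawal males lay closer to control females than to control males. The distance between a pair of libraries was taken as the median absolute difference of log2(TPM + 1) over the members, after rescaling of the libraries. It was 0.119 to 0.151 among the 3 withdrawal males and 0.204 between the 2 control males, so replicates lay close together. Between withdrawal and control males it was 0.621 to 0.74. Between withdrawal males and control females it was only 0.282 to 0.358, and control males in turn lay at 0.264 to 0.437 from withdrawal females. Withdrawal males lay at 0.454 to 0.634 from withdrawal females and at 0.453 to 0.583 from alcohol males. The order of these distances thus crossed the labels of both sex and treatment. Biology, preparation of the libraries and an exchange of labels cannot be told apart for the control and withdrawal libraries of both sexes, which bears on every comparison of withdrawal with control below.

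**Figure D1:**
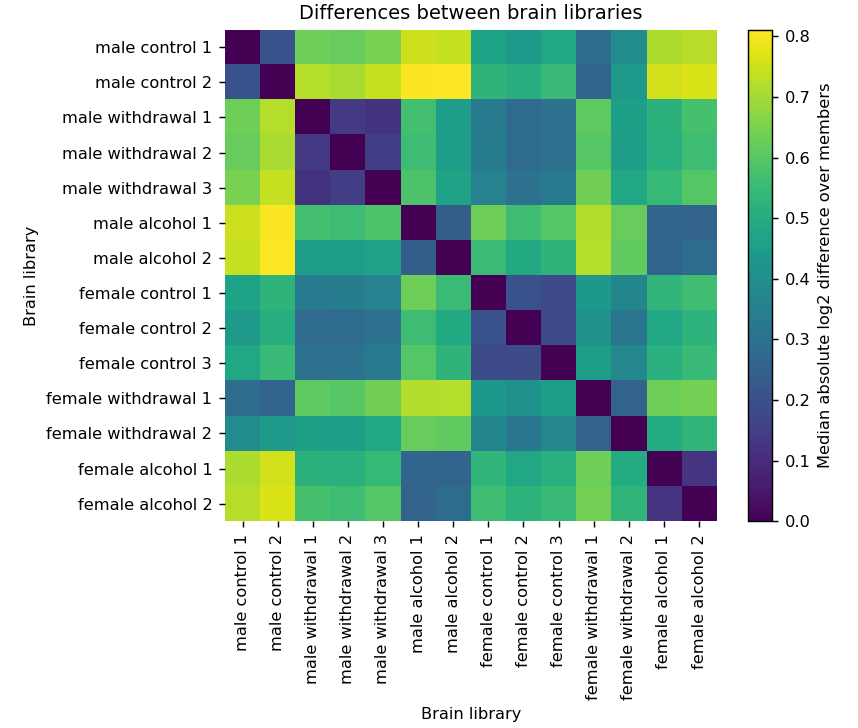
Distances between the 14 brain libraries, as the median absolute log2 difference over the 28788 members (colour scale, log2 units), with libraries on both axes. The 3 withdrawal males lie nearer the control females (0.282 to 0.358) than the control males (0.621 to 0.74).

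Male brains after withdrawal differed from control brains at most members. Of the 28788 members, 8670 (30.1%) were higher and 9104 (31.6%) lower after withdrawal at an adjusted p below 0.05 (limma with Benjamini-Hochberg adjustment over all tested transcripts). Over all 36682 tested transcripts 24.7% were called higher and 26.1% lower, so the shares among the members were near the background. The median size of the change was 1.11 on the log2(TPM + 1) scale among members called higher and 0.79 among those called lower, and 2476 called members moved by less than 0.5. The median log2 change over all members was −0.01.

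Over all members, rises of at least 2-fold were more numerous than falls, but not among members present in every library. Of the 28788 members, 5000 were higher and 3106 lower by at least 2-fold. Over all 36682 tested transcripts 5023 (13.7%) were higher and 3232 (8.81%) lower by as much. Of the 5000 rises, 2306 were members with no control library at 1 TPM, which passed the filter only through withdrawal. Among the 19838 members at 1 TPM or more in all 5 libraries, 2051 were higher and 2184 lower by 2-fold or more. Among all called members, whether or not present in every library, 1327 were higher and 657 lower at a log2 change of at least 2 in size. These counts include members that passed the filter only through withdrawal or only through control, and no background share is given at this size. Of the 11014 members not called, 7108 had a 95% interval that lay within 1 log2 unit of no change, while for 3906 the interval reached past it and a 2-fold change could not be set aside.

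**Figure D2:**
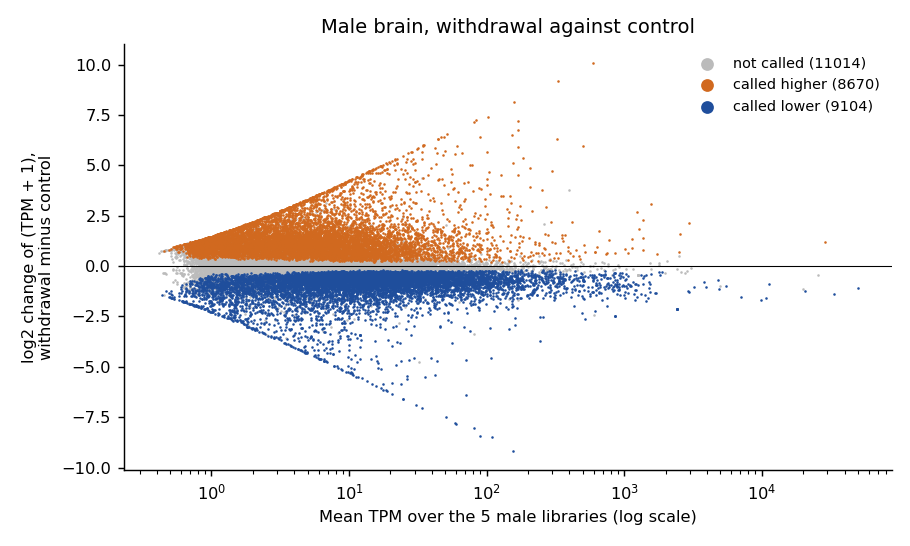
Log2 change of each member (vertical axis, log2(TPM + 1), withdrawal minus control) against its mean TPM over the 5 male libraries (horizontal axis, log scale), coloured by call. Orange marks the 8670 members called higher and blue the 9104 called lower. Under 5 TPM, 4411 members passed the filter only through withdrawal and 564 only through control males. Of the 101 members over 1000 TPM, 63 are called lower after rescaling.

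The balance of rises and falls depended on how libraries were brought to one scale. Rescaling by the median of ratios split the calls into 48.8% higher and 51.2% lower, and quantile normalisation gave the same split. With TPM as deposited, 12280 members were called higher and 3429 lower, a split of 78.2% to 21.8%, and the median of all tested transcripts shifted by 0.29. The members that were called and changed by 2-fold or more under all 3 scalings numbered 3630 higher (12.6%) and 1170 lower (4.06%), with 9.91% and 3.24% over all tested transcripts. A pseudocount of 5 in place of 1 lowered the count of 2-fold changes to 1854 higher and 1704 lower.

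Some members entered only because of the group in which they were high. No control library reached 1 TPM for 4793 members, of which 3208 (66.9%) were called higher, and no withdrawal library did for 624, of which 590 (94.6%) were called lower. Over all tested transcripts 24.7% were called higher and 26.1% lower. The filter all but set the direction of the calls in these 2 sets, so their shares are a description. Among the 19838 members at 1 TPM or more in all 5 libraries, 4557 (23%) were called higher and 7936 (40%) lower, with a median log2 change of −0.22. At the edge of the rule, 2419 members reached 1 TPM in exactly 2 libraries, with a median second-highest level of 1.33 TPM. A further 2750 transcripts reached it in 1 library only and were left out, with a median highest level of 1.3 TPM.

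After rescaling the median change ran with abundance, which quantile normalisation did not show. Members were sorted by their mean deposited TPM over the 5 male libraries. Under 5 TPM, 4414 of 13086 were called higher (33.7%) and 2252 lower (17.2%), with a median log2 change of 0.30. Of these 13086, 4411 passed the filter only through withdrawal and 564 only through control males. Among the 4981 at 1 TPM or more in all 5 libraries the balance turned, with 918 called higher (18.4%) and 1223 lower (24.6%). At 5 to 20 TPM, 3186 of 9715 were called higher and 3481 lower, with a median of −0.08. At 20 to 100 TPM the falls led, with 906 of 4822 called higher, 2603 called lower (54%) and a median of −0.37.

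After rescaling, falls outnumbered rises in each class of abundant transcripts. At 100 to 300 TPM, 116 of 777 were called higher and 499 lower (64.2%), with a median of −0.50. At 300 to 1000 TPM, 33 of 287 were called higher and 206 lower (71.8%), with a median of −0.61. Over 1000 TPM, 15 of 101 were called higher and 63 lower (62.4%), with a median of −0.78 and single withdrawal libraries at −0.89 to −0.63. The balance of these 101 turned with the scaling, with 24 called higher and 33 lower in TPM as deposited, and 27 higher and 24 lower with quantile normalisation. The direction of several classes changed with the scaling: with TPM as deposited the medians of the 3 classes between 5 and 300 TPM turned to 0.39, 0.14 and 0.017, and with quantile normalisation the class over 1000 TPM turned to 0.029. In the class under 5 TPM, the 4981 members at 1 TPM or more in all 5 libraries had a median of −0.10, while 4411 members of the class had no control library at 1 TPM.

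**Figure D3:**
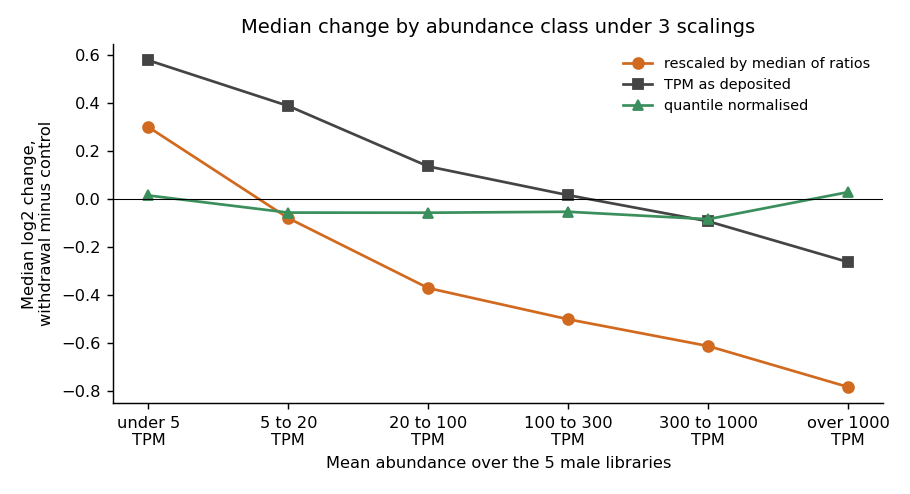
Median log2 change of the members (vertical axis, withdrawal minus control) in 6 classes of mean TPM over the 5 male libraries (horizontal axis), under 3 scalings. Rescaled medians run from 0.30 under 5 TPM to −0.78 over 1000 TPM, deposited TPM runs from 0.58 to −0.26, and quantile normalised medians stay between −0.084 and 0.029.

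The most abundant transcripts took up less of the pool after withdrawal. The 10 most abundant transcripts of each library held 23.6% and 26.2% of TPM in control males and 17.7%, 22.8% and 18.7% in withdrawal males, so the groups did not overlap. The most abundant member was listed at 57800 and 65100 deposited TPM in control males and at 40000, 46900 and 38600 in withdrawal males, and the groups did not overlap. Its log2 change after rescaling was −1.08 (SE 0.371, limma adjusted p = 0.0314). Of the 10 most abundant members, 7 were called lower and 1 higher, the third in rank (log2 1.18, SE 0.289, limma adjusted p = 0.00597). With deposited TPM 5 were called lower and 1 higher, and with quantile normalisation 4 were called lower and 1 higher.

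A small number of transcripts switched between being listed at 0 and being clearly present. A switch was a member listed at 0 in every library of one group and at 5 deposited TPM or more in every library of the other. On this rule 210 members were on after withdrawal (0.572% of tested transcripts) and 75 were off (0.204%). Mean levels of the 210 in withdrawal males ran from 5.25 to 997 TPM with a median of 12.3, and 16 reached 50 TPM. Mean levels of the 75 in control males ran from 6.09 to 387 TPM with a median of 16.6, and 11 reached 50 TPM. Without control male replicate 1 the count of transcripts on after withdrawal was 328. RSEM divides reads among similar transcripts of a gene, so a listed 0 can be a failed allocation rather than an absent transcript.

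The switched transcripts were not on or off in the same way in the other brains. Of the 210 on after withdrawal, 80 (38.1%) were at 5 TPM or more in all 3 control females and 13 (6.19%) were listed at 0 there. In withdrawal females the order turned, with 5 (2.38%) at 5 TPM or more in both libraries and 83 (39.5%) listed at 0 in both. In alcohol males 68 (32.4%) were at 5 TPM or more and 47 (22.4%) listed at 0. Of the 75 off after withdrawal, 25 (33.3%) were listed at 0 in all control females and 6 (8.0%) in both withdrawal females. More of the 75 were listed at 0 under alcohol, 44 (58.7%) in both alcohol males and 47 (62.7%) in both alcohol females. Over all members, 1.11% were listed at 0 in all control females, 2.36% in both withdrawal females, 2.0% in both alcohol males and 3.0% in both alcohol females. Over all members, 49.3% were at 5 TPM or more in all control females, 42.9% in both withdrawal females and 73.2% in both alcohol males, so the switched-on transcripts lay below these shares in each group.

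The transcript ENSDART00000150000.1 had the largest rise among called members above 0 in all 5 libraries, with groups that did not overlap and a mean of at least 10 TPM in the higher group. Its rescaled level was 0.376 and 1.88 TPM in control males and 336, 225 and 343 TPM in withdrawal males. The log2 change was 7.22 (SE 0.51, limma adjusted p = 6.23e-06). A call and groups that did not overlap were conditions of the choice, so the separation and the p-value are a description. Control females, at 391, 230 and 204 TPM, lay at the level of the withdrawal males (log2 difference 0.16, SE 0.46, limma adjusted p = 0.852). Alcohol males had 20.4 and 60.5 TPM, withdrawal females 8.58 and 19.8 TPM, and alcohol females 2.77 and 5.13 TPM, all between the control and withdrawal males.

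The transcript ENSDART00000147546.2 had the largest rise among members listed at 0 in both control males. It had 1200, 920 and 1110 rescaled TPM in withdrawal males (limma adjusted p = 0.000141), and no fold is given against a group at 0. This transcript passed the filter only through withdrawal and was picked from called members. Its p-value is therefore a description and gives no separate support. Control females had 816, 593 and 705 TPM and alcohol males 129 and 180 TPM. Alcohol females had 114 and 90.9 TPM, and the withdrawal females were split, with 1 library listed at 0 and the other at 97.4 TPM.

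The transcript ENSDART00000138569.1 had the largest fall under the same conditions. Its rescaled level was 273 and 270 TPM in control males and 1.75, 2.86 and 2.17 TPM in withdrawal males, a log2 change of −6.40 (SE 0.34, limma adjusted p = 1.21e-06). Here too the separation and the p-value follow from the choice and are a description. It was low in every other brain library, from 0 to 5.87 TPM, so the control males were the 2 libraries that stood out. The difference between withdrawal males and control females, at 0.675, 0.449 and 1.28 TPM, did not pass the threshold (log2 0.87, SE 0.30, limma adjusted p = 0.0744).

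The transcript ENSDART00000062738.6 had the largest fall among members listed at 0 in all withdrawal males. Control males had 393 and 837 rescaled TPM (limma adjusted p = 3.03e-05). This transcript passed the filter only through control males and was picked from called members, so its p-value is a description. It was also listed at 0 in both alcohol males and in all 3 control females. Withdrawal females had 202 and 8.78 TPM, and alcohol females 0.435 and 0 TPM.

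**Figure D4:**
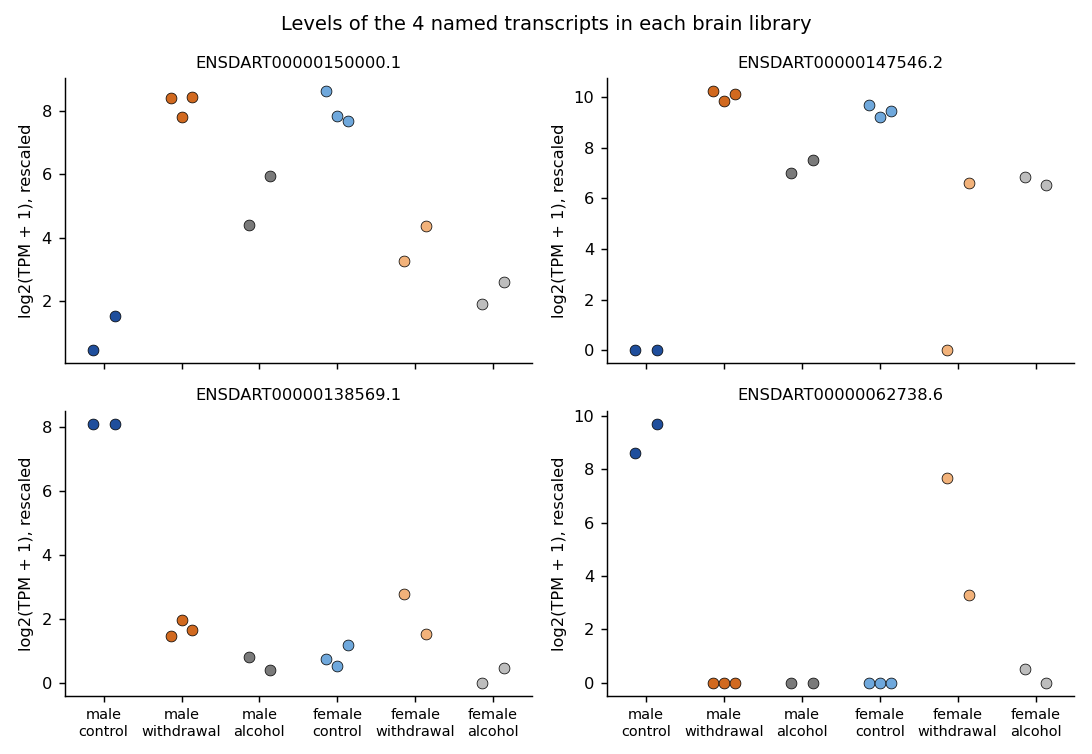
Levels of the 4 named transcripts in each of the 14 brain libraries, as log2(TPM + 1) after rescaling (vertical axes), 1 point per library, by group (horizontal axes). In each panel control males lie far from withdrawal males, for which the transcripts were chosen, and all control females lie on the side of the withdrawal males.

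The liver libraries of the same groups give a second view of the same contrast, since they share no library with the brain. The labels do not say whether brain and liver came from the same fish. The brain sets followed into the liver were chosen after brain and liver values had been seen. A member was counted in the liver when it reached 1 TPM in at least 2 of the 8 livers outside the male contrast, which held for 15882 members. Of these, 5395 (34.0%) were called higher and 4537 (28.6%) lower in withdrawal male livers by limma, against 33.4% and 28.1% of all 21158 liver transcripts tested.

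Of the members counted in the liver, most of those that changed by 2-fold or more in male brain under all 3 scalings were also called in the same direction in male liver. That set held 1903 of the 3630 members that rose in brain and 491 of the 1170 that fell, and the others were not counted in the liver. Of the 1903 counted members that rose 2-fold or more in brain under all 3 scalings, 1437 (75.5%) were called higher in male liver and 39 lower. Of the 491 that fell 2-fold or more in brain, 359 (73.1%) were called lower in male liver and 12 higher. For female livers, a member was counted when it reached 1 TPM in at least 2 of the 8 livers outside the female contrast. The transcripts counted thus differ from those counted for male livers. Of the counted members that rose in male brain, 559 of 1970 (28.4%) were called higher in female liver and 118 (5.99%) lower. Of those that fell, 124 of 708 (17.5%) were called lower and 27 (3.81%) higher. Over all transcripts tested, 17% were called higher and 16.7% lower in female livers after withdrawal.

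The transcripts switched on in male brain after withdrawal were mostly listed at 0 in control male liver as well. Of the 210, 133 were counted in the liver, and 120 of them (90.2%) were listed at 0 in both control male livers. Over all counted members this share was 6.13%. In withdrawal male livers 6 of the 133 (4.51%) were listed at 0 in both libraries and 107 (80.5%) were at 1 TPM or more in both. In control females 7 (5.26%), in withdrawal females 3 (2.26%), in alcohol males 1 (0.752%) and in alcohol females 3 (2.26%) were listed at 0 in both livers. Low shares in these 8 livers follow in part from the rule for counting, which did not use control or withdrawal male livers. Of the 133, 111 (83.5%) were called higher in male liver after withdrawal and 0 lower. A transcript listed at 0 in both control male livers cannot be called lower. For the 120 so listed, the direction of a call thus restates the listing and is no separate result. For the 133 transcripts a listing at 0 in both tissues went with the control male label, and its cause was not tested. Few of the transcripts switched off in brain were counted in the liver, 16 of the 75. The rule for counting left out transcripts present only in control and withdrawal male livers. Of the 16, 4 (25.0%) were listed at 0 in both withdrawal male livers, against 2.34% over all counted members. In withdrawal male livers 9 (56.2%) were at 1 TPM or more in both. In control male livers 13 (81.2%) were, and 0 were listed at 0 in both. Of these 16, 5 (31.2%) were called lower in male liver and 0 higher, against 28.6% and 34.0% over all counted members.

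**Figure D5:**
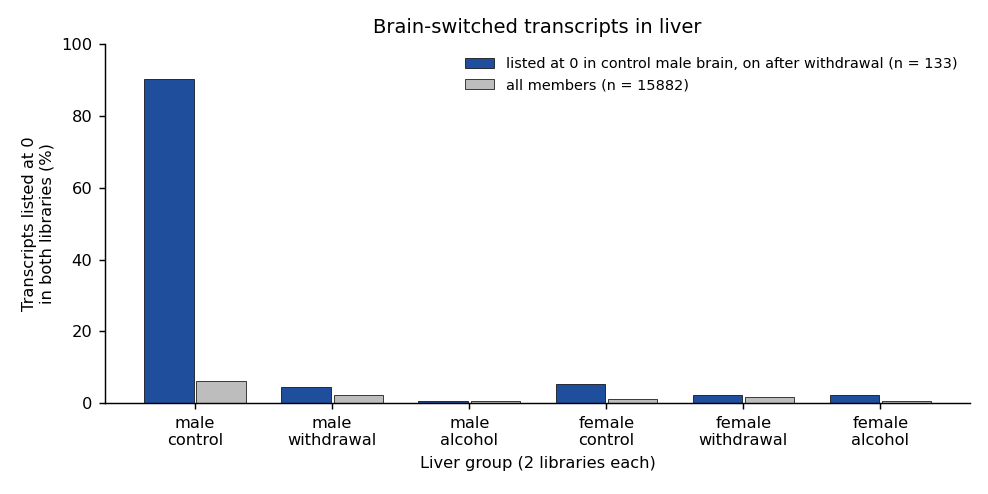
Share of transcripts listed at 0 in both liver libraries (vertical axis, percent) in the 6 liver groups (horizontal axis), for the 133 transcripts switched on in male brain after withdrawal and for all 15882 members counted in liver. In control males 90.2% of the 133 are listed at 0, against 0.752% to 5.26% in the other groups.

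Among the named transcripts, ENSDART00000150000.1 was low in control males and high in withdrawal males in liver too. It had 1.53 and 0.514 rescaled TPM in control male livers, 134 and 100 TPM in withdrawal male livers, and 35.7 to 66.4 TPM in every other liver. The low level of withdrawal females in brain was not seen in liver. Withdrawal female livers had 62.8 and 57 TPM, and control female livers 66.4 and 35.7 TPM. ENSDART00000138569.1 had 0.8 and 2.45 TPM in control male livers and was listed at 0 in all other livers. The other two were near 0 throughout the liver, at most 1.19 TPM for ENSDART00000147546.2 and 0.323 TPM for ENSDART00000062738.6.

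The withdrawal difference of males differed from that of females at most members. The male and female effects, which rest on separate libraries, differed at 17588 of the 28788 members (61.1%) by limma's test of the difference itself, against 52.9% of all tested transcripts. In females 14% of tested transcripts were called higher and 11.8% lower after withdrawal. Of the 8670 members called higher in males, 2888 were called lower in females and 187 higher, with a female median log2 change of −0.41. Of the 9104 called lower in males, 3122 were called higher in females and 221 lower, with a female median of 0.29. Across the 28788 members the male and female effects had a Pearson r of −0.608, given as a description because transcripts are not independent and all libraries were rescaled together.

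Withdrawal males differed less from control females than from their own controls. Between withdrawal males and control females 5401 members (18.8%) were called by limma, against 16.3% of all tested transcripts. Leaving out withdrawal male replicates 1, 2 and 3 in turn lowered this count to 2796, 3384 and 2349. Between withdrawal females and control males 4710 members (16.4%) were called, against 15.4% of tested transcripts. Over all members, the control female mean lay nearer to withdrawal males than to control males at 65.8%, and the withdrawal female mean did so at 35.2%. The means of alcohol males (64.1%) and alcohol females (62.2%) did so about as often as that of control females.

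Control males were outside the range of the other brain libraries more often than withdrawal males were. Both control male libraries lay above or below all 12 others at 7271 members (25.3%), against 21% of tested transcripts. All withdrawal males did so against 11 others at 3456 members (12.0%, background 9.97%). Without the alcohol libraries the shares were 31.9% and 30.7% (background 27.2% and 25.6%), so the gap between the groups was small there. These shares also depend on group size, since 3 libraries are less often all outside a range than 2.

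Alcohol males and withdrawal males share the control males as reference, so their values are set side by side only. Against control males, alcohol males had 7523 members called higher (26.1%) and 8864 lower (30.8%), where 23.1% and 24.5% of tested transcripts were called. The members called higher after withdrawal had a median log2 change of 1.11 in withdrawal males and 0.91 in alcohol males. The members called lower had medians of −0.79 and −0.94. Set directly against alcohol males, withdrawal males were higher at 7985 members (27.7%) and lower at 4631 (16.1%), with a background of 21.9% and 14.7%. With TPM as deposited the count of members called between withdrawal and alcohol males rose from 12616 to 21609. Rescaling divided TPM by 2.04 to 2.18 in the alcohol libraries, by 0.937, 0.892 and 0.946 in withdrawal males and by 0.691 and 0.600 in control males, and for these libraries exposure and preparation cannot be told apart.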

How the data were processed

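RNA sequencing of pooled brain and liver tissue was done with non-stranded TruSeq libraries on an Illumina HiSeq instrument, per the labels' protocols. The submitters' processing notes name FastQC 0.11.7, STAR 2.5.2, RSEM 1.3.1 and the danRer10 build, and the series design gives their roles as read check, aligner and abundance estimate, and the annotation release is not given in the sources used here. The authors deposited TPM per Ensembl transcript, so the number of reads is unknown and no interval or floor that needs it is given.

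The 14 brain libraries were rescaled by the median of ratios over the 27390 transcripts above 0 in all of them, and log2(TPM + 1) was fitted with limma 3.58.1 in R 4.3.3, with 1 mean for each of the 6 groups, a variance trend and Benjamini-Hochberg adjustment over the 36682 transcripts that reached 1 TPM in 2 or more libraries. A log2 change on this scale understates the change of transcripts of low abundance. The liver was fitted in the same way, separately. Abundance classes, shares of TPM and switches use TPM as deposited, and levels of named transcripts use rescaled TPM. Tables and plots were made in Python 3.11.15 with pandas 2.3.3 and matplotlib 3.10.9, and the procedure was tested on simulated data.

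Named transcripts were, in each direction, the called member with the largest log2 change that was above 0 in all 5 libraries, with groups that did not overlap and a mean of at least 10 TPM in the higher group, and the one with the largest change among called members listed at 0 throughout the lower group and at 10 TPM or more throughout the higher. The reference tables used here hold genes and not transcripts, so planned gene lists and cell type markers, and any sequences, could not be used. The members, lists and tests were chosen with earlier results of these data known. The labels give no batch. Among the members, 93 had the values of another member in all 5 libraries. No label says that replicate numbers pair the libraries, and they were not taken as pairs in the main fit. Alternatives covered scaling, pseudocount, filter, libraries in the fit, a replicate block and leaving out each male library.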

Additional observations from a re-analysis of the deposited data

Results flagged for a closer look

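Results were listed here where the withdrawal effect, withdrawal minus control, differed between male and female brain in a test of the difference itself (limma, adjusted p over all tested transcripts). This held for 17588 members (61.1%), against 52.9% of all tested transcripts. The named transcripts below were chosen for the largest changes in male brain, and the male change is part of this difference. Their differences and p-values are therefore not independent of that choice and are given as a description. For ENSDART00000150000.1 the male effect exceeded the female one by 11.4 log2 units (SE 0.73, limma adjusted p = 1.95e-06), with a rise in males and a fall in females. For ENSDART00000138569.1 the male minus female difference was −7.73 log2 units (SE 0.48, limma adjusted p = 1.72e-06), with a fall in males and a rise in females. That rise was between low levels, from 0.675, 0.449 and 1.28 rescaled TPM in control females to 5.87 and 1.9 TPM in withdrawal females. For ENSDART00000147546.2, listed at 0 in both control males, the difference had a limma adjusted p of 5.05e-05. For ENSDART00000062738.6, listed at 0 in all withdrawal males, it had a limma adjusted p of 1.01e-05. No test for an outlying library is reported, because the groups hold only 2 or 3 libraries. As a description, withdrawal male replicates 1, 2 and 3 lay more than 1 log2 unit from the mean of the other withdrawal males at 759, 1117 and 1058 members.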

How the results depend on the processing

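Each of the 4 named transcripts kept its direction and its call in all 14 alternatives. With TPM as deposited, members called lower fell to 3429, those lower by 2-fold or more to 1195, and members called between withdrawal and alcohol males rose to 21609. The medians of the 6 abundance classes, from lowest to highest, were then 0.58, 0.39, 0.14, 0.017, −0.092 and −0.26, and with quantile normalisation 0.015, −0.056, −0.057, −0.053, −0.084 and 0.029. With the 5 male libraries alone the first 5 classes had 0.32, −0.015, −0.30, −0.43 and −0.54. A pseudocount of 0.1 gave 0.43 and −0.084 in the first 2 classes, and one of 5 gave 0.13, −0.061, −0.34 and −0.49 in the first 4, with 1854 members higher and 1704 lower by 2-fold or more. Switches numbered 581 on and 185 off at 1 TPM, and 92 on at 10 TPM. The cause of these shifts was not tested.

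Leaving out each male library in turn gave class medians of 0.28 to 0.32, −0.11 to −0.079, −0.39 to −0.37, −0.55 to −0.48, −0.72 to −0.56 and −0.96 to −0.65. It gave 223 to 328 switches on and 82 to 102 off, 6406 to 8031 members called higher, 7226 to 8482 called lower, and 2349 to 5684 called between withdrawal males and control females. The share of the 1000 most abundant transcripts then differed by −9.28 to −5.78 percentage points. With all 5 libraries the difference was −7.40 points for the 100 most abundant (exact permutation p = 0.2). For the 5000 most abundant it was −5.38 points (exact permutation p = 0.1). Called members in liver numbered 1293 to 1480 for the set higher in brain and 318 to 372 for the set lower in brain over 6 liver alternatives.

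With the replicate number as a block, 7944 members were called higher and 8290 lower, and 15429 differed between the sexes. The difference between replicates 1 and 2 correlated at −0.0106 between control and withdrawal males. With so few libraries this cannot settle whether libraries of the same number were prepared together. Precision is limited by 2 and 3 libraries a group and by the unknown depth.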
